A study of Mus musculus with 6 samples.

Results

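The genes described here make, inactivate or sense prostaglandin E2 and lysophosphatidate, a pair of lipid signals. They were read in cultured cells of the 4T1 line, which comes from a mouse mammary carcinoma and forms metastases. The cells carried a vector expressing an shRNA against NFAT1 (3 arrays) or a vector with a control shRNA (3 arrays), and were collected after 10 days of selection. The 10 genes are the cyclooxygenases Ptgs1 and Ptgs2, the prostaglandin E synthases Ptges, Ptges2 and Ptges3, the inactivating dehydrogenase Hpgd, the receptors Ptger2 and Ptger4, the lysophosphatidate-producing enzyme Enpp2, and the receptor Lpar1. A probe set, a group of short oligonucleotides read as 1 value, was kept where the platform annotation gave it exactly 1 gene symbol and that symbol was 1 of the 10. This left 14 of 45037 probe sets, for 7 of the 10 genes. Ptges3 had 2 probe sets that also carry the name of its pseudogene, so it is not analysed here, nor are Ptgs1 and Enpp2, which had 0 probe sets with their symbol in that annotation. Values are log2 RMA signals, and differences are NFAT1 shRNA minus control shRNA.

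Cyclooxygenases turn arachidonate into prostaglandin H2, and the prostaglandin E synthases convert that into prostaglandin E2. The products of Ptger2 and Ptger4 answer it by raising cAMP, and the dehydrogenase encoded by Hpgd removes its activity. Ptgs2 and Ptges are the inducible enzymes of this route, and mammary tumours are known to make prostaglandin E2. Autotaxin, the product of Enpp2, releases lysophosphatidate from lysophosphatidylcholine, and Lpar1 encodes a receptor for it that couples to several G proteins. NFAT1 is a transcription factor that calcium and calcineurin bring into the nucleus. Ptgs2 and Enpp2 are reported NFAT targets.

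The 250 bases before the start sites of Ptgs2 and Ptges, the inducible enzymes of the route, are shown because these are the genes of the set that stimuli are known to induce. The sequences are from RefSeq, build GRCm38.p6, and capitals mark GGAAA, the core letters of NFAT binding sites, on either strand.
Ptgs2, chr1:150099781-150100030, plus strand: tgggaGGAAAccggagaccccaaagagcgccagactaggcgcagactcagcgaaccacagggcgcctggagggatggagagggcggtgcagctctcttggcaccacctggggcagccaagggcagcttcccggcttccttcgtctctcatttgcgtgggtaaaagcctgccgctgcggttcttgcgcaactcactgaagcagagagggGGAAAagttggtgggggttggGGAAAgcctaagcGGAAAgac
Ptges, chr2:30903298-30903547, minus strand: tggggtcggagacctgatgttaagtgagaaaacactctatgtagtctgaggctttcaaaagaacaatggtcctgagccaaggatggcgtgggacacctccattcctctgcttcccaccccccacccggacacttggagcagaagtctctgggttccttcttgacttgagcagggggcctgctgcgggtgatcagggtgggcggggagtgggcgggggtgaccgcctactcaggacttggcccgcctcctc
The Ptgs2 sequence held 4 matches, all on the gene's own strand, with first bases at -245, -42, -21 and -8 from the start. At least 4 matches were found in 1.59% of the 32851 promoters of the table. The Ptges sequence held 0 matches, while 55.6% of all promoters held at least 1. Of the 7 genes, 6 had at least 1 match in a window of this length, and Lpar1 has 3 listed start sites. The letters TGACG of the cAMP response element, searched on both strands, had 0 matches in the 9 windows of the 7 genes, against 17.8% of all promoters with at least 1. For Ptgs2 it lay at bases 14 to 18 after the start, on the opposite strand. It is thus just outside the window, and its absence there depends on which start is listed. The matches are letters in these windows, and binding was not measured.

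The targeted gene and the arrays were examined first. Nfatc2, which encodes NFAT1, was read by 6 probe sets, with a lower NFAT1 shRNA mean on 4 and a higher one on 2, and 0 of the 6 passed with limma (3 had an unadjusted p under 0.05). On 1439205_at the NFAT1 shRNA arrays 1, 2 and 3 read 5.15, 5.43 and 5.29, against 6.05, 6.18 and 5.91 on the control arrays. Each NFAT1 shRNA array lay below each control there, with NFAT1 shRNA 1 the lowest, and the difference was -0.76 ± 0.11 (SE; limma adjusted p = 0.0707), or 0.592-fold. It passed without NFAT1 shRNA 1 (-0.69, limma adjusted p = 0.0160). On 1426032_at the groups did not overlap either, but the NFAT1 shRNA arrays were the higher ones, with 6.19, 6.48 and 6.09, against 5.92, 5.92 and 5.86 on the control arrays (a difference of 0.35 ± 0.12, SE; limma adjusted p = 0.251). The other 4 probe sets differed by -0.26 to 0.05. Groups also did not overlap on 1426031_a_at (means of 4.16 in NFAT1 shRNA cells and 4.42 in control cells) and 1425990_a_at (3.50 and 3.64). The NFAT1 shRNA arrays were the lower ones on both, at a low signal. The probe sets of the gene thus did not go one way, and the labels of the arrays are used as given. NFAT1 shRNA 1 stood apart from its group, as it correlated across probe sets with the controls at 0.991 to 0.995, and with NFAT1 shRNA 2 and 3 at 0.986 and 0.985. Differences of the members are given with and without it. Since it was singled out for its likeness to the controls, leaving it out tends to enlarge group differences. Passing without it is thus not separate support for a difference. Epithelial markers were bright, with all 7 above the array medians (5.42 to 5.48) in both groups. Among fibroblast, leukocyte and endothelial markers, 1 of 6, 2 of 5 and 1 of 4 were. These were Pdgfra (7.71 in NFAT1 shRNA cells and 7.23 in control cells), Csf1r (8.09 and 8.26), Cd68 (7.30 and 6.54) and Kdr (5.96 and 5.66), while Ptprc, Col1a1, Dcn and Pecam1 had means below the medians in both groups. Summed over the 5 leukocyte markers, the log2 signal was 24.7, 28.2 and 27.5 on the NFAT1 shRNA arrays 1, 2 and 3, against 25.3, 26.4 and 26.3 on the control arrays. NFAT1 shRNA 2 and 3 thus lay above each control and NFAT1 shRNA 1 below each. The same held for the sum over the 7 epithelial markers, with 80.3, 83.6 and 83.3, against 81.1, 82.7 and 82.0 on the control arrays. Of the single epithelial markers only Cldn4 showed it, with 10.16, 11.62 and 11.63, against 10.46, 11.52 and 11.05 on the control arrays. Krt8 read highest on NFAT1 shRNA 1 (13.23). What the likeness of these sums reflects was not tested. In the fibroblast and endothelial sums NFAT1 shRNA 1 did not lie below each control. It is also NFAT1 shRNA 2 and 3 that left the range of the controls for Ptgs2 below. Cd68, a macrophage marker, differed by 0.76 over all arrays (limma adjusted p = 0.428) and by 1.30 without NFAT1 shRNA 1 (limma adjusted p = 0.0119). The other leukocyte markers did not pass there. Csf1r differed by -0.18 over all arrays and by 0.37 without NFAT1 shRNA 1 (limma adjusted p = 0.380). Ptprc, Itgam and Cd3e differed by -0.04, 0.07 and 0.16 without it. The part of these markers in the member results was not tested. Whether replicate arrays stem from different cultures is not in the labels, and the p-values cover the scatter of these 6 samples, part of which may be technical. No clone and no shRNA sequence is named.

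Across the 14 probe sets, 0 passed the limma test (adjusted p under 0.05 over all 45037), where 0.200% of all probe sets passed. An unadjusted p under 0.05 was found for 5 of the 14, 3 higher and 2 lower, where 15.7% of all probe sets had one (8.03% higher and 7.65% lower). The 5 were the 3 Ptges probe sets, with higher means in NFAT1 shRNA cells, and 2 of the 3 Lpar1 probe sets, with lower means. Groups did not overlap at 6 probe sets, 3 higher and 3 lower, against 20.9% of all probe sets (11.6% higher and 9.33% lower). The median size of the difference, regardless of sign, was 0.57 over the 14 and 0.13 over all probe sets. For 5 of the 14 both group means lay below the lowest array median, called dim here. The median size over all probe sets includes dim and unnamed ones. The 14 read only 7 genes, so these medians do not compare like sets. RMA compresses differences among dim probe sets, and in cell populations fewer expressing cells and less RNA per cell cannot be told apart.

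**Figure D1:**
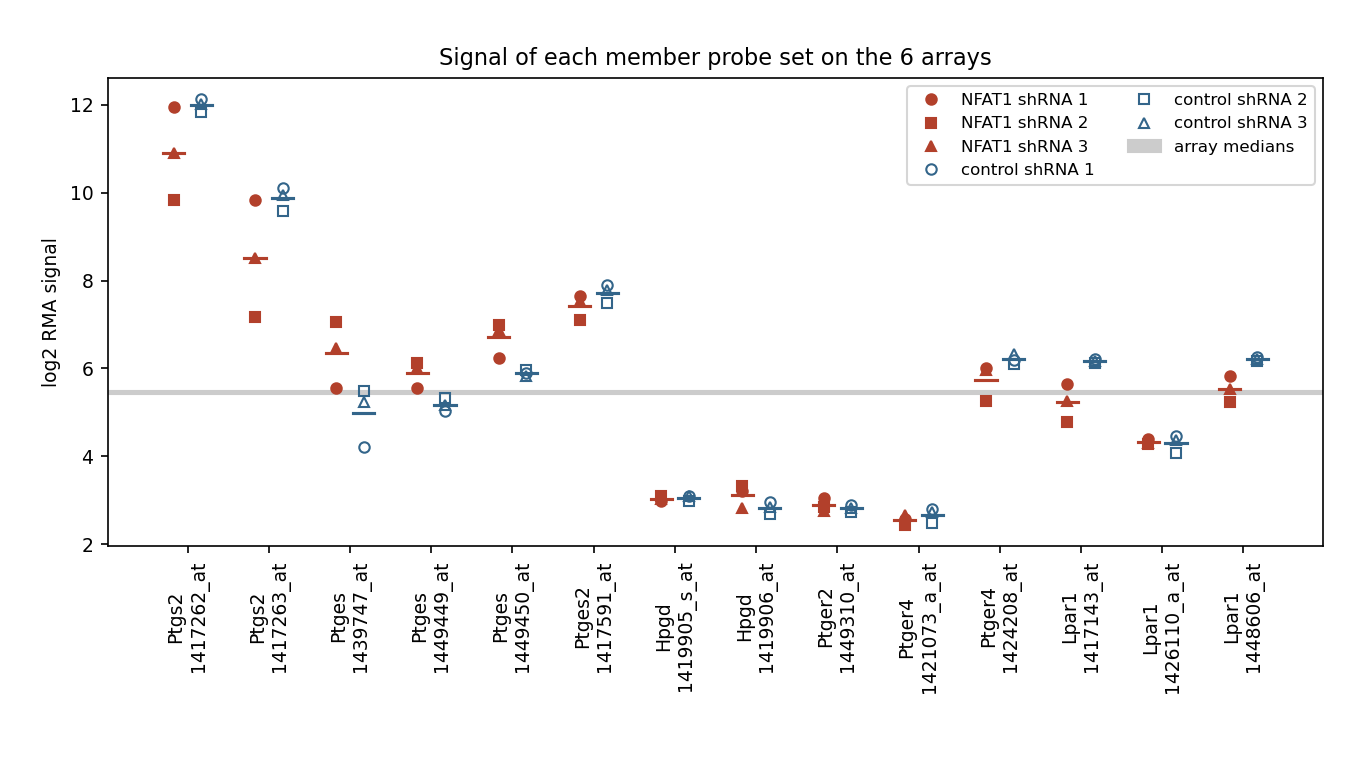
Log2 RMA signal (vertical axis) of the 14 probe sets on each array. Filled red symbols are NFAT1 shRNA arrays, open blue symbols control arrays, short lines the group means, and the grey band the array medians (5.42 to 5.48). The Ptgs2 probe sets are bright, with NFAT1 shRNA 1 among the controls, and the Hpgd and Ptger2 probe sets lie far below the band in both groups.

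Ptgs2 was bright on both of its probe sets, and its signal was far lower on NFAT1 shRNA arrays 2 and 3 than on the other arrays. On 1417262_at the NFAT1 shRNA arrays 1, 2 and 3 read 11.95, 9.83 and 10.91, against 12.13, 11.83 and 12.01 on control arrays 1, 2 and 3. On 1417263_at they read 9.83, 7.17 and 8.51, against 10.11, 9.58 and 9.95 on the control arrays. Arrays 2 and 3 of the NFAT1 shRNA group lay below every control on both probe sets, and array 1 lay within the range of the controls, so the groups overlapped. The mean on 1417262_at was 10.90 ± 1.06 in NFAT1 shRNA cells and 11.99 ± 0.15 in control cells (SD, n = 3 each), and the difference was -1.09 ± 0.48 (SE; limma adjusted p = 0.333). Its 95% interval ran from -2.24 to 0.06. On 1417263_at the difference was -1.38 ± 0.61 (SE; limma adjusted p = 0.332). Without NFAT1 shRNA 1 the differences were -1.62 and -2.04, and both passed (limma adjusted p = 0.0213 and 0.0215). Without control 3 as well they were -1.61 and -2.00 (limma adjusted p = 0.102 and 0.103). Leaving out NFAT1 shRNA 2 in place of NFAT1 shRNA 1 gave smaller differences, -0.56 and -0.71 (limma adjusted p = 0.594 and 0.596).

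The likeness of other genes to Ptgs2 was measured on 1417262_at across the 6 arrays, among 13515 probe sets with 1 symbol and a mean of at least 7 in a group. Prim2, a subunit of the DNA primase, had a Pearson r of 0.998, and the chaperone gene Dnajc21 and the gene Pald1 had 0.997 each. A Pearson r over 0.95 was found for 643 probe sets, so many genes shared this profile. The arrays share 2 groups and 1 outlying array, and the differences of these 3 genes (-0.14, -0.31 and -0.32) were smaller than that of Ptgs2. They were -0.21, -0.48 and -0.48 without NFAT1 shRNA 1, and none of the 3 passed (limma adjusted p = 0.198, 0.0514 and 0.0648). The r was not computed on fewer arrays, and over 6 arrays it is a description only.

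Ptges, which encodes the inducible microsomal prostaglandin E synthase, had higher mean signals in NFAT1 shRNA cells on all 3 of its probe sets. On 1449450_at, the brightest, NFAT1 shRNA arrays 1, 2 and 3 read 6.25, 6.999 and 6.88, against 5.89, 5.97 and 5.84 on the control arrays. On 1449449_at they read 5.56, 6.12 and 6.01, against 5.02, 5.33 and 5.17. On 1439747_at they read 5.57, 7.05 and 6.47, against 4.20, 5.48 and 5.24. Each NFAT1 shRNA array lay above each control on these probe sets, although NFAT1 shRNA 1 exceeded control 2 on 1439747_at by less than the range of either group. The mean on 1449450_at was 6.71 ± 0.40 in NFAT1 shRNA cells and 5.90 ± 0.07 in control cells (SD, n = 3 each), and the difference was 0.81 ± 0.20 (SE; limma adjusted p = 0.178), or 1.75-fold. Its 95% interval ran from 0.34 to 1.28. The difference was 0.72 ± 0.16 (SE; limma adjusted p = 0.161) on 1449449_at and 1.39 ± 0.45 (SE; limma adjusted p = 0.250) on 1439747_at. Control means of 5.17 and 4.97 on those probe sets lay below the array medians, so these differences can be understated. Without NFAT1 shRNA 1 the differences on 1449450_at, 1449449_at and 1439747_at were 1.04, 0.89 and 1.79, and all passed (limma adjusted p = 0.0064, 0.0105 and 0.0316).

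Ptges2, the membrane-associated synthase that is not inducible, was read by 1 probe set, 1417591_at. The NFAT1 shRNA arrays 1, 2 and 3 read 7.64, 7.09 and 7.52, against 7.89, 7.48 and 7.78 on the control arrays. The groups overlapped, since control 2 read below NFAT1 shRNA 1 and 3. The difference was -0.30 ± 0.17 (SE; limma adjusted p = 0.430), with a 95% interval from -0.71 to 0.12. It did not pass without NFAT1 shRNA 1 either (-0.41, adjusted p = 0.193), and it was -0.14 without NFAT1 shRNA 2 (adjusted p = 0.768).

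Hpgd, the dehydrogenase that inactivates prostaglandin E2, was dim on both probe sets. On 1419906_at the NFAT1 shRNA arrays 1, 2 and 3 read 3.20, 3.32 and 2.83, against 2.96, 2.68 and 2.85 on the control arrays, and the groups overlapped. Its difference was 0.29 ± 0.15 (SE; limma adjusted p = 0.377), with 0.25 without NFAT1 shRNA 1 and 0.19 without NFAT1 shRNA 2. Without NFAT1 shRNA 3 it was larger, 0.44 (limma adjusted p = 0.231). On 1419905_s_at, a kind of probe set that can also read related transcripts, all 6 arrays lay between 2.99 and 3.11. The difference was -0.02, and 0.0058 without NFAT1 shRNA 1. Neither probe set passed in any fit, and what could be detected at this low signal was not tested.

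Of the receptor genes of prostaglandin E2, Ptger2 was dim, with 3.04, 2.86 and 2.75 on the NFAT1 shRNA arrays 1, 2 and 3, against 2.89, 2.74 and 2.82 on the control arrays. The difference was 0.07 ± 0.10 (SE; limma adjusted p = 0.772), with a 95% interval from -0.18 to 0.31, and -0.01 without NFAT1 shRNA 1. Ptger4 was read above the medians in both groups on 1424208_at, where the NFAT1 shRNA arrays 1, 2 and 3 read 6.003, 5.26 and 5.96, against 6.18, 6.11 and 6.32 on the control arrays. The groups did not overlap there, but the gap between NFAT1 shRNA 1 and control 2 was smaller than the range of either group. The difference was -0.46 ± 0.20 (SE; limma adjusted p = 0.334), with a 95% interval from -0.95 to 0.03, and it did not pass without NFAT1 shRNA 1 (-0.59, adjusted p = 0.117). Without NFAT1 shRNA 2 it was -0.22 (limma adjusted p = 0.559). The other Ptger4 probe set, 1421073_a_at, was dim, and its means were 2.56 ± 0.11 in NFAT1 shRNA cells and 2.66 ± 0.16 in control cells (SD, n = 3 each). Its difference was -0.11 both with and without NFAT1 shRNA 1, and leaving out any other array gave -0.20 to -0.04.

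Lpar1, the lysophosphatidate receptor gene, had lower mean signals in NFAT1 shRNA cells on 2 of its 3 probe sets. On 1417143_at the NFAT1 shRNA arrays 1, 2 and 3 read 5.64, 4.78 and 5.27, against 6.22, 6.12 and 6.16 on the control arrays. On 1448606_at they read 5.83, 5.25 and 5.54, against 6.26, 6.17 and 6.22 on the control arrays. The groups did not overlap on either, and the controls lay within a narrow range. On 1417143_at the mean was 5.23 ± 0.43 in NFAT1 shRNA cells and 6.17 ± 0.05 in control cells (SD, n = 3 each), and the difference was -0.94 ± 0.21 (SE; limma adjusted p = 0.151). Its 95% interval ran from -1.43 to -0.45, and the mean of the NFAT1 shRNA arrays was under the medians, so the difference can be understated. On 1448606_at the difference was -0.68 ± 0.15 (SE; limma adjusted p = 0.151). The third probe set, 1426110_a_at, was dim and did not share this: its means were 4.33 ± 0.06 in NFAT1 shRNA cells and 4.30 ± 0.20 in control cells (SD, n = 3 each), with a difference of 0.03, and -0.0048 without NFAT1 shRNA 1. The transcript regions behind these probe sets were not analysed here. Without NFAT1 shRNA 1 the differences on 1417143_at and 1448606_at were -1.14 and -0.82, and both passed (limma adjusted p = 0.0105 and 0.0114).

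**Figure D2:**
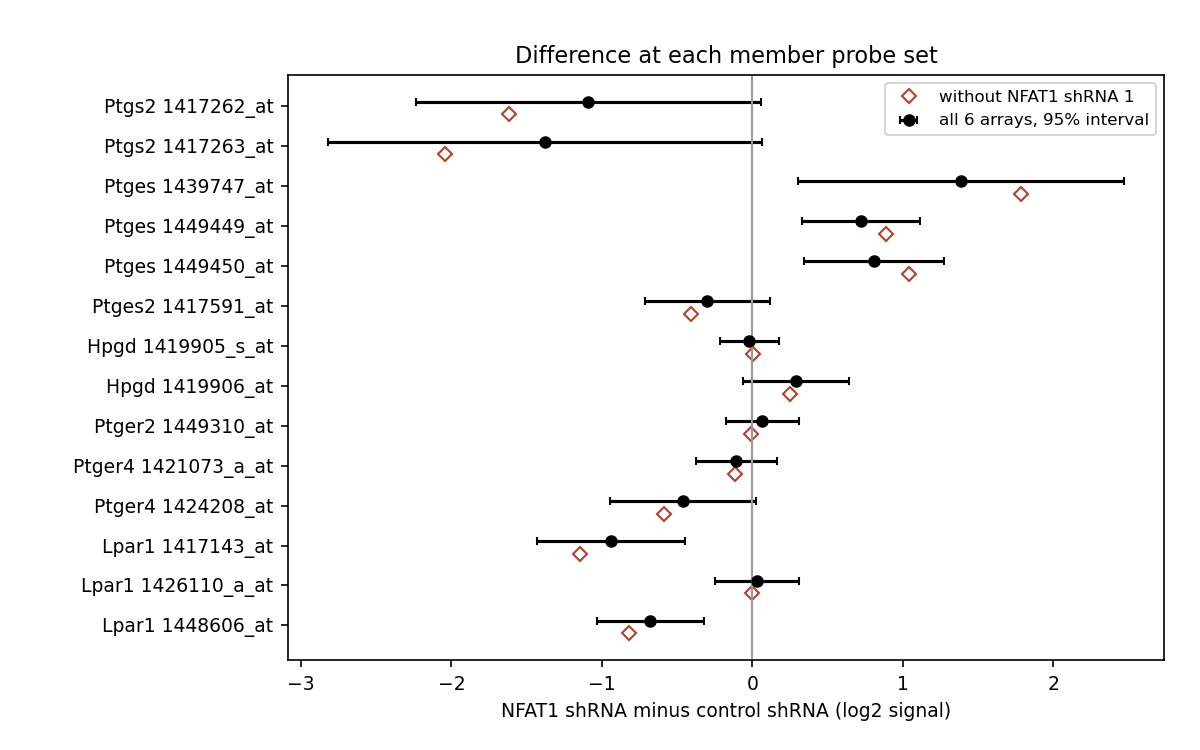
NFAT1 shRNA minus control shRNA in log2 signal (horizontal axis) for the 14 probe sets. Black points and bars are limma differences over 6 arrays with 95% intervals, and open red diamonds are the differences without NFAT1 shRNA 1. The intervals of the 3 Ptges probe sets lie above 0, those of 2 Lpar1 probe sets lie below 0, and those of Ptgs2 reach just past 0.

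Exact permutation tests (2-sided, over the 20 splits of 3 arrays against 3) gave p = 0.1 for the 6 probe sets without overlap, the smallest value this design allows. For both Ptgs2 probe sets the exact permutation p was 0.2.

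Without NFAT1 shRNA 1, 7 of the 14 probe sets passed with limma, 3 higher (Ptges) and 4 lower (Ptgs2 and Lpar1), where 12.9% of all probe sets passed. Without control 3 as well, 0 of the 14 passed, where 0 (0.00%) of all 45037 probe sets passed, and 7 of the 14 had an unadjusted p under 0.05, against 20.6% of all probe sets. The differences of the 7 stayed about as large, from 0.88 to 1.92 on the Ptges probe sets, and -1.15 and -0.82 on 1417143_at and 1448606_at (Lpar1). The choice to leave out these arrays was made with earlier results of these data known. NFAT1 shRNA 1 was singled out for its likeness to the controls, so the calls without it are a description only.

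The NFAT1 shRNA arrays differed among themselves in the same way across the members. At the 9 probe sets that were not dim, which read 5 genes, NFAT1 shRNA 1 lay nearest to the control mean 9 times and NFAT1 shRNA 2 farthest 9 times. Among all probe sets that were not dim these shares were 56.1% and 42.7%. The order NFAT1 shRNA 1, 3, 2, going away from the control side, held for 9 of 9 member probe sets and for 30.3% of all probe sets that were not dim. Probe sets of 1 gene are not independent of each other. On 1417262_at (Ptgs2) the NFAT1 shRNA arrays 1, 2 and 3 lay at -0.04, -2.16 and -1.08 from the control mean. On 1417143_at (Lpar1) they lay at -0.53, -1.39 and -0.90, so NFAT1 shRNA 1 was outside the controls for Lpar1 and among them for Ptgs2. Of the 9 probe sets, 6 had NFAT1 shRNA 1 outside the control range, against 59.6% of all probe sets that were not dim. Control 2 lay on the NFAT1 shRNA side of the control mean at 9 of 9 probe sets, against 59.0% of all that were not dim.

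**Figure D3:**
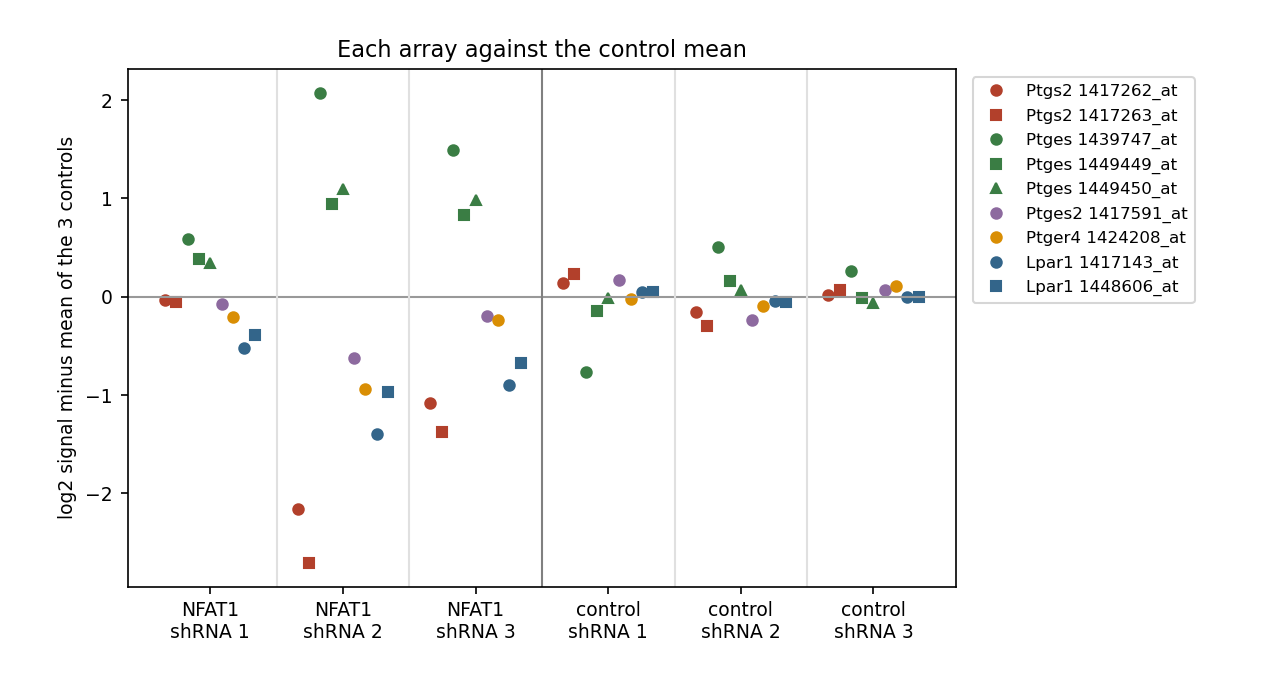
Log2 signal of each array minus the mean of the 3 controls (vertical axis) for the 9 probe sets that were not dim, with NFAT1 shRNA arrays left and control arrays right of the dark line, and colours for genes. NFAT1 shRNA 2 shows the widest spread, from -2.71 for Ptgs2 to 2.08 for Ptges, and the Ptgs2 points of NFAT1 shRNA 1 lie near 0.

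Other genes of these pathways were taken from 4 lists of 72 genes, of which 68 were measured, and a gene was counted by its probe sets with 1 symbol. With limma 0 of the 68 passed over all probe sets, where 0.374% of all genes did, and 28 were dim on their brightest probe set. At the brightest probe set an unadjusted p under 0.05 was found for 14 of the 68 and for 17.5% of all genes, and the median difference over all genes was 0.04. Counting a gene where any of its probe sets had such a p, a count that grows with the number of probe sets, gave 24 of the 68, which is 35.3%, and 24.2% of all genes.

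Of 25 other enzymes that make or break down prostaglandins and related lipids, 0 passed, and 4 had an unadjusted p under 0.05, all with higher means. Higher means were found for 19 of the 25, against 59.3% of all genes, and the median difference was 0.13. However, 14 of the 25 were dim on their brightest probe set. The 19 include dim genes with small differences, such as Pla2g2e (0.02) and Tbxas1 (0.03). Ltc4s, the leukotriene C4 synthase, was dim and differed by 0.39 ± 0.08 (SE; limma adjusted p = 0.132; 0.40 without NFAT1 shRNA 1). Ptgr2, a reductase that breaks down oxidised prostaglandins, had 8.27 ± 0.15 in NFAT1 shRNA cells and 7.91 ± 0.09 in control cells (SD, n = 3 each; limma adjusted p = 0.227) on the brightest of its 6 probe sets, of which 5 had a higher mean and 1 a lower one. Of 10 prostanoid receptors and carriers, 0 passed, 7 were dim, and 1 was higher and 1 lower at an unadjusted p under 0.05, with a median difference of 0.03. Abcc4, an exporter of prostaglandin E2, read 8.56, 8.34 and 8.58 on the NFAT1 shRNA arrays 1, 2 and 3, against 9.20, 8.72 and 9.02 on the control arrays. Its groups did not overlap, with a difference of -0.48 ± 0.14 (SE; limma adjusted p = 0.224), and of -0.52 without NFAT1 shRNA 1 (limma adjusted p = 0.0887). The receptor gene Ptger1 was dim on both of its probe sets and differed by 0.27 on 1450491_at (limma adjusted p = 0.243; 0.31 and 0.0744 without NFAT1 shRNA 1) and by -0.15 on 1445445_s_at.

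Of 21 other lysophosphatidate receptors, enzymes and G protein genes, 0 passed, and 1 was higher and 4 were lower at an unadjusted p under 0.05, with a median difference of -0.04. Plpp1, a phosphatase that degrades lysophosphatidate at the cell surface, read 7.57, 7.52 and 7.62 on the NFAT1 shRNA arrays 1, 2 and 3, against 7.99, 7.97 and 7.95 on the control arrays. The groups lay apart and the arrays of each were close, with a difference of -0.40 ± 0.08 (SE; limma adjusted p = 0.112). The same difference passed without NFAT1 shRNA 1 (-0.40, limma adjusted p = 0.0351), and the other Plpp1 probe sets differed by -0.27 and, on a dim one, by 0.06. Lpcat3, an acyltransferase of lysophospholipids, differed by -0.49 ± 0.12 (SE; limma adjusted p = 0.184; -0.61 and 0.0121 without NFAT1 shRNA 1). Of 12 cAMP response genes, 0 passed, and 2 were higher and 1 lower at an unadjusted p under 0.05, with a median difference of 0.03. Prkar1a, a regulatory subunit of the cAMP-dependent kinase, differed by 0.29 ± 0.08 (SE; limma adjusted p = 0.223; 0.29 and 0.108 without NFAT1 shRNA 1). The clock gene Per1 differed by 0.52 ± 0.16 (SE; limma adjusted p = 0.239; 0.69 and 0.0141 without NFAT1 shRNA 1). Without NFAT1 shRNA 1, 13 of the 68 genes passed with limma, which is 19.1%, against 19.8% of all genes.

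**Figure D4:**
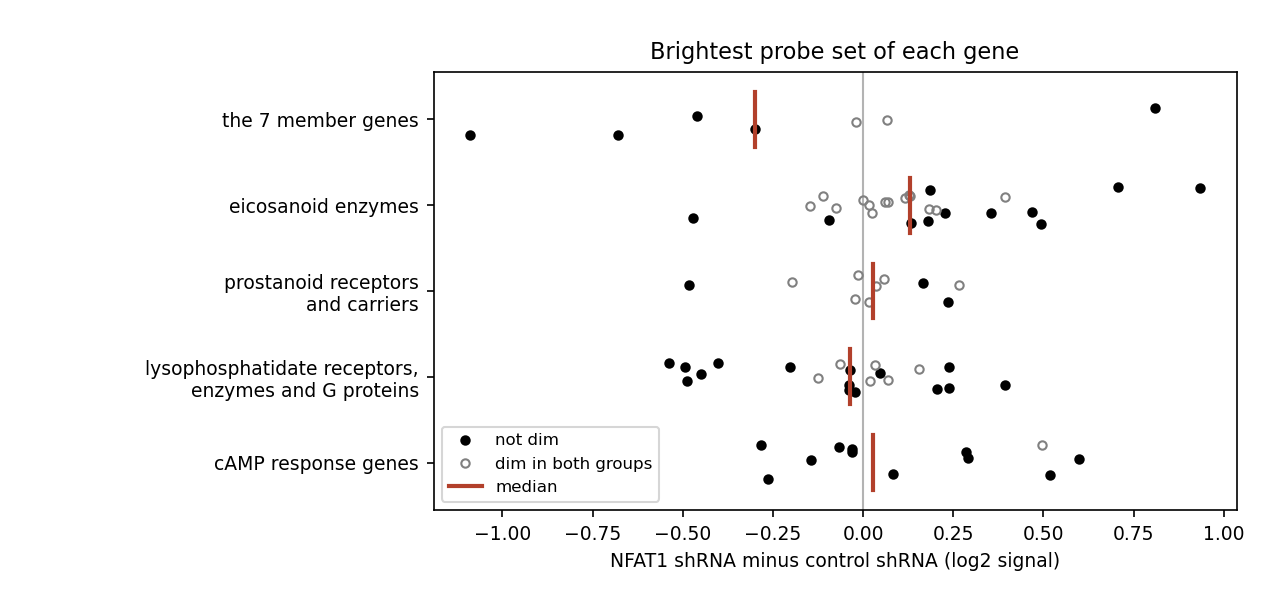
NFAT1 shRNA minus control shRNA in log2 signal (horizontal axis) at the brightest probe set of each gene, for the 7 members and the 4 lists. Filled points are genes that were not dim, open points dim genes, and red bars the medians. Ptges (0.81) and Ptgs2 (-1.09) lie at opposite ends of the member row, and the list medians lie between -0.04 and 0.13.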

How the data were processed

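The authors deposited log2 signals per probe set. Per the submitters' processing notes they used RMA, on biotinylated cRNA of 200 ng total RNA per the labels' protocols. The RMA version is not given in the sources used here. RMA corrects for background, forces 1 distribution on the arrays and combines the probes of a set, so a shift of most transcripts would be hidden. Values ran from 1.80 to 14.22. Of 45037 probe sets, 34945 had 1 symbol, 932 several, and 9160 are unnamed here. GRCm38.p6 gene tables gave names (34741 matched by gene number, 0 symbols changed).

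All probe sets were fitted in limma 3.58.1 (R 4.3.3; lmFit, then eBayes) with no filter or covariate, 2-sided, with Benjamini-Hochberg adjustment over all probe sets. The fit was tested on simulated data. Exact permutation tests used scipy 1.17.1 in Python 3.11.15. Precision is limited by the number of arrays. Samples were grouped by title.

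The named genes were every member probe set, Nfatc2, the 3 genes most like Ptgs2, and from each list the genes that passed or, with none, the 2 with the smallest unadjusted p. The members, lists and alternatives were chosen with earlier results of these data known. Likeness to Enpp2 was planned and could not be computed.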

Additional observations from a re-analysis of the deposited data

How the results depend on the processing

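Of 16 alternatives, those that kept all 6 arrays, unweighted and unblocked, gave 0 member probe sets, 0 list genes and 0 Nfatc2 probe sets past the limma test, as did the fit of all arrays (with 5 member probe sets, 24 list genes by any of their probe sets, and 3 Nfatc2 probe sets at an unadjusted p under 0.05). With array weights 4 member probe sets, 7 list genes, 1 Nfatc2 probe set and 2279 of all probe sets passed, where 90 passed without weights. With the replicate number as a block, 4 member probe sets (2 of Ptges, 2 of Lpar1), 1 list gene, 1 Nfatc2 probe set and 1432 of all probe sets passed. Deviations from the group means correlated at 0.62, 0.51 and 0.05 between same-numbered arrays. Between arrays of different number they correlated at -0.58 to 0.27, the highest being NFAT1 shRNA 3 with control 2. The labels give only the shared number, and a pairing of the samples was not tested. Leaving out 1 array gave 0 to 7 member probe sets, 0 to 13 list genes, 0 to 1 Nfatc2 probe sets and 0 to 5794 of all probe sets. The upper ends came without NFAT1 shRNA 1. The count over all probe sets was 0 without control 1, 2 or 3 or NFAT1 shRNA 2 (3992, 5086, 4251 and 4290 at an unadjusted p under 0.05). Without control 3 and NFAT1 shRNA 1 it was 0, with 9273 at an unadjusted p under 0.05. The cause of these changes was not tested.

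Signs turned only at dim probe sets. Leaving out 1 array moved Hpgd 1419905_s_at (-0.02) between -0.057 and 0.0058, above 0 without NFAT1 shRNA 1 (0.0058) and control 1 (0.0019). It was 0.020 without control 3 and NFAT1 shRNA 1, and 0.14 as the mean of its probe sets. Ptger2 (0.07) ran from -0.013 without NFAT1 shRNA 1 to 0.13 without NFAT1 shRNA 3, and was -0.0096 without control 3 and NFAT1 shRNA 1. Lpar1 1426110_a_at (0.03) ran from -0.084 without control 2 to 0.11 without control 1, with -0.0048 without NFAT1 shRNA 1. It was -0.038 with array weights and -0.014 with quantile normalization repeated. The other 193 member values under an alternative kept their sign, and 15 of them passed where the fit of all arrays did not. The number of arrays and the dim signal of Hpgd and Ptger2 limit what can be detected.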

Other observations

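Without NFAT1 shRNA 1, a setting that raised the calls over all genes to 19.8%, the list genes that passed with limma were of these kinds, named after their values were seen. Of the 25 eicosanoid enzymes 5 were higher and 0 lower: Pla2g7, which hydrolyses platelet-activating factor (1.44, adjusted p = 0.0109), the lipid peroxide reductase Gpx4, the carbonyl reductase Cbr1, Ltc4s and Ptgr2. Of the 21 genes listed as lysophosphatidate receptors, enzymes and G proteins, 1 was higher, the G protein gene Gna13. In that list 4 were lower: Gde1 (-0.86, adjusted p = 0.0191), Lpcat2, Lpcat3 and Plpp1. Among the 12 cAMP response genes the kinase gene Sik1 (0.93, adjusted p = 0.0070) and Per1 were higher. Nr4a2 passed as lower on 1 of its 6 probe sets, 1433423_at (-0.55, adjusted p = 0.0168), while 3 of the 6 had a higher mean without NFAT1 shRNA 1, its brightest, 1455034_at, among them (0.23, adjusted p = 0.457). A gene was counted here where at least 1 of its probe sets passed, which for Gna13 was 2 of 7, for Ptgr2 1 of 6 and for Plpp1 1 of 3. For Lpcat2 and Sik1 it was 1 of 2. The Lpcat2 probe set that passed, 1440684_at, was dim, and its brightest, 1434945_at, did not pass (-0.48, limma adjusted p = 0.0919). None of these list genes passed over all 6 arrays.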
